A study of Rattus norvegicus with 15 samples.

Results

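The genes described here encode 9 transcriptional regulators of heart muscle: the zinc finger factors Gata4 and Gata6, the homeodomain factor Nkx2-5, the basic helix-loop-helix factors Hand1 and Hand2, the T-box factors Tbx5 and Tbx20, the MADS-box factor Srf and its coactivator Myocd (myocardin). They were picked by symbol, and each symbol stood on 1 of the 19328 entries of the expression table that were used. Of the 9, 6 reached 1 FPKM (fragments per kilobase of transcript, scaled to the mapped fragments of a library) in at least 3 of 15 libraries and were tested, while Hand1, Tbx5 and Tbx20 stayed below that filter. The cells were H9c2, a line of myoblasts from embryonic rat heart that the labels call cardiomyocyte cells. RNA was sequenced in 5 groups of 3 libraries. Control cells (con, with the genotype tag WT) were given phosphate-buffered saline. Cells of the DOX group were given doxorubicin at 2 µM, an anthracycline and topoisomerase II poison, and were harvested 24 h later. The remaining groups received the same doxorubicin 4 h after an addition. DSI+DOX received 50 µL of danshen injection, an extract of Salvia miltiorrhiza root, at 1 in 20 of the culture volume. AXT+DOX received 5 µM astaxanthin, a carotenoid, and DMT+DOX received 10 µM diosmetin, a flavone. No group had an addition without doxorubicin, so that a change by an addition itself and a changed response to doxorubicin cannot be told apart. Whether the replicates came from separate cultures is not stated in the labels, so that the p-values rest on a spread between samples that may be technical.

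In the embryonic heart these factors bind the control regions of one another and of contractile protein genes, and they often act as physical partners, as GATA4 does with NKX2-5 and TBX5. SRF binds the CArG box and serves 2 kinds of target: with myocardin it drives smooth and cardiac muscle genes, and with ternary complex factors such as ELK1 it drives immediate early genes. GATA4 has been studied as a survival factor of heart muscle cells, and in isolated rodent cardiomyocytes its loss after anthracycline exposure has been described.

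Libraries were even apart from 1. Summed FPKM was 433383 to 468608 in 14 of them, and 548227 was reached by DSI+DOX replicate 3. Across genes, this library correlated at r = 0.953 and 0.963 with its fellow replicates on the log2(FPKM + 1) scale, against at least 0.991 within the other groups. For each of the 6 tested factors its value lay outside the range of the other 14 libraries, below it for Gata4, Gata6, Srf and Myocd and above it for Nkx2-5 and Hand2. Calls of the factors that changed when it was left out are given with and without it. The label of cardiomyocyte was met in part by marker genes. Of 26 cardiac muscle genes in the table, 16 stayed below the filter, 15 of them under 1 FPKM in every library. Among these were the defining markers Myh6 (cardiac myosin heavy chain; at most 0.127 FPKM in any library), Nppa (atrial natriuretic peptide; at most 0.0811), Tnni3 (cardiac troponin I; at most 0.321) and Ryr2 (the calcium release channel; at most 0.0550). In con, by contrast, Tnnt2 (cardiac troponin T) stood at 204 ± 9.40 FPKM (SD, n = 3) and Myog (myogenin, a skeletal muscle regulator) at 93.9 ± 4.03. Of 17 skeletal muscle markers with an entry, Myog among them, 10 passed the filter, and the list summed to 179.7 to 197 FPKM in con. Fibroblast and smooth muscle markers stood higher, at a sum of 9364 to 9848 FPKM in con, with 12 of 18 passing. Among these, Col1a1 (type I collagen) was at 3143 ± 55.1 FPKM. Of 7 endothelial and blood cell markers none passed the filter, and their summed level was between 0.608 and 1.45 FPKM in all libraries. In such bulk samples, fewer cells of a type and less RNA per cell cannot be told apart.

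The promoters below are shown because the factors are known to regulate one another, and each holds letters that a factor of this group is known to bind. They are the 250 bases before and 50 bases after the annotated start, from RefSeq on the rat assembly GRCr8. The expression files use the build Rnor_6.0, so these coordinates were not joined to them. RefSeq promoters were matched for 7 of the 9 genes, not for Gata4 or Myocd. Both strands were searched for the CArG box, the E-box that HAND factors bind, the NKX site, the T-box core, the GATA site and the TATA box. A GATA site was taken as AGATAA, also with T as its first base or G as its last. In Srf the capitals mark a pair of CArG boxes, CCATATAAGG at positions -81 to -72 and CCATAAAAGG at -61 to -52, counted from the start site at 0. In Hand2 they mark 2 E-boxes (CANNTG) at -243 to -238 and -232 to -227 and a GATA site at -172 to -167. In Gata6 they mark the T-box core (AGGTGT) at 26 to 31, after the start.
Srf, chr9:21923826-21924125, + strand: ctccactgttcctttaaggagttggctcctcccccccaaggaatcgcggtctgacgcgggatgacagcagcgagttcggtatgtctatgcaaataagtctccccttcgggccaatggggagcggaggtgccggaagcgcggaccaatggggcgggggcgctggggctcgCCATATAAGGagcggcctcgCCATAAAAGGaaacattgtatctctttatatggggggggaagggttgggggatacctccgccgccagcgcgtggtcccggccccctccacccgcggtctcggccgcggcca
Hand2, chr16:37931439-37931738, - strand: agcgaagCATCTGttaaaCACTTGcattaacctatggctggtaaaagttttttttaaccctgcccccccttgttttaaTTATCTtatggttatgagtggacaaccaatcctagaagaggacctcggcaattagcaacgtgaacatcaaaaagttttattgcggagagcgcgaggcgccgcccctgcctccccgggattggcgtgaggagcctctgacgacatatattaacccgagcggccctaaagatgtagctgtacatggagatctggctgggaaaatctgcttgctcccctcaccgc
Gata6, chr18:2460659-2460958, + strand: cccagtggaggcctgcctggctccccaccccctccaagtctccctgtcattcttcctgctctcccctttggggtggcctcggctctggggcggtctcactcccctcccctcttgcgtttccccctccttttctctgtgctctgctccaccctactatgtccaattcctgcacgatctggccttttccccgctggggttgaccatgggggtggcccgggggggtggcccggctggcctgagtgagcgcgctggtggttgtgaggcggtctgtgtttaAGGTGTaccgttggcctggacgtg
Of 33469 promoters of this length, 1.64% held a CArG box and 7 of them (0.0209%) held 2 or more, Srf among them. A GATA site stood in 30.3%, an E-box in 72.1% and the T-box core in 13.6%, so that these matches are common. Nkx2-5 had an E-box at -218 to -213, Tbx5 a GATA site at -225 to -220 and 2 E-boxes, Hand1 a TATA box, and Tbx20 none of the motifs. The NKX site (TNAAGTG), present in 11.5% of promoters, was found in none of the 7. The TATA box (TATAAA), present in 14.2%, was found in Srf and Hand1. No match overlapped another. A match is a description of letters, and no binding was measured.

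In FPKM, Hand2 was the most abundant of the 6 tested factors, with a mean of 29.6 over 15 libraries (higher than 77.9% of tested genes), followed by Srf with 18.9 (67.0%). Nkx2-5 followed at 6.14 FPKM (32.7%), Myocd at 4.82 (26.4%), Gata4 at 4.14 (23.2%) and Gata6 at 3.19 (17.9%), all below the median of tested genes of 10.7. Srf varied least between libraries, with the highest value 1.29 times the lowest, and Myocd most, at 3.48 times. For the others the ratio was 1.59 (Gata4), 1.82 (Nkx2-5), 1.91 (Gata6) and 1.93 (Hand2).

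**Figure D1:**
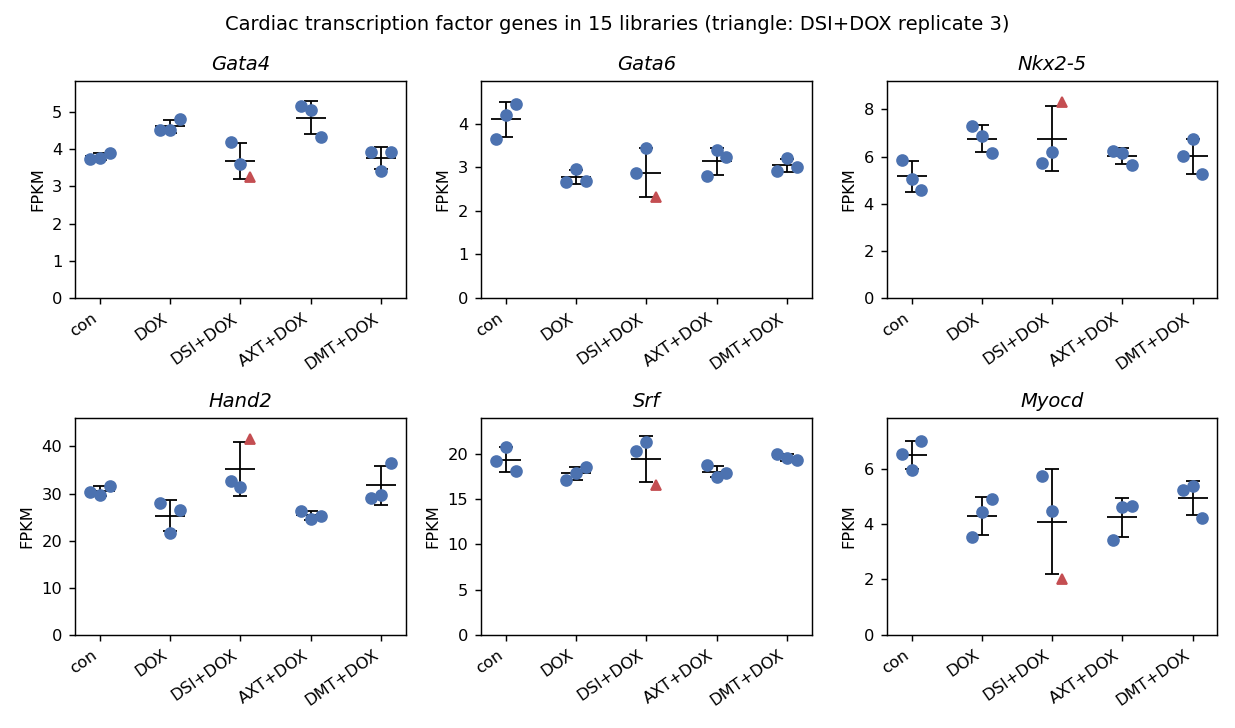
FPKM of the 6 tested factor genes (vertical axes, each from 0) in the 5 groups (horizontal axes); points are libraries, bars the group mean ± SD (n = 3), and the red triangle is DSI+DOX replicate 3. Gata6 was lower in all 12 libraries with doxorubicin than in the 3 of con, and the triangle lies at an end of the range for every gene.

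Gata6, which encodes a GATA factor of heart and gut development, fell with doxorubicin. It stood at 3.66, 4.20 and 4.44 FPKM in con replicates 1, 2 and 3 and at 2.67, 2.95 and 2.68 in DOX. Every DOX library was below every con library. The mean fell by 32.5%, from 4.10 ± 0.402 (SD, n = 3) to 2.77 ± 0.160 FPKM (log2 fold change -0.43, SE 0.11, limma Benjamini-Hochberg adjusted p = 0.00541). It was the only factor whose call in DOX against con held in all 22 alternatives that tested it (adjusted p from 0.000616 to 0.0287). With an addition, the values were 2.87, 3.45 and 2.32 FPKM in DSI+DOX, 2.79, 3.39 and 3.24 in AXT+DOX and 2.92, 3.20 and 3.01 in DMT+DOX. All 9 of these libraries were below the lowest con library and each group overlapped DOX. Against DOX the log2 differences were 0.03 (95% interval -0.20 to 0.26) with DSI, 0.13 (-0.10 to 0.36) with AXT and 0.10 (-0.13 to 0.33) with DMT, none called. Against con Gata6 was called lower in all 3 addition groups. The log2 fold changes were -0.40 with DSI (adjusted p = 0.00991), -0.30 with AXT (adjusted p = 0.0421) and -0.33 with DMT (adjusted p = 0.0351). Without DSI+DOX replicate 3 the DSI difference was -0.29 (adjusted p = 0.0249). The AXT call held in 9 of 22 alternatives (adjusted p from 0.00729 to 0.153), the DMT call in 16 (from 0.00620 to 0.132) and the DSI call in 21 (from 0.00305 to 0.104). Both the AXT and the DMT call were lost without con replicate 2 or 3 or any library of the addition group, and the AXT call also without any DOX or DMT+DOX library.

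Gata4, its paralogue and an early regulator of heart muscle genes, lay higher in DOX without passing the threshold. It stood at 3.75, 3.78 and 3.91 FPKM in con and at 4.51, 4.51 and 4.83 in DOX. The groups did not overlap, and the log2 difference was 0.22 ± 0.09 (SE; adjusted p = 0.0663). In the additions it was 4.19, 3.60 and 3.25 FPKM in DSI+DOX, 5.16, 5.06 and 4.34 in AXT+DOX and 3.93, 3.42 and 3.92 in DMT+DOX. The DSI+DOX and DMT+DOX libraries were all below the DOX libraries, and the AXT+DOX libraries were spread around them. Gata4 was higher in AXT+DOX than in con, with a log2 fold change of 0.28 ± 0.09 (adjusted p = 0.0266, called in 16 of 22 alternatives, from 0.00762 to 0.0937, and lost without any con library or AXT+DOX replicate 1 or 2). It was also higher in AXT+DOX than in DSI+DOX, by 0.32 ± 0.09 (adjusted p = 0.0389). This last call was lost without DSI+DOX replicate 3 (adjusted p = 0.0739) and held in 5 of 22 alternatives (0.0127 to 0.399). Against DOX the log2 difference was -0.27 with DSI (adjusted p = 0.0839) and -0.24 with DMT (adjusted p = 0.117). Without DSI+DOX replicate 3 they were -0.20 (adjusted p = 0.157) and -0.24 (adjusted p = 0.0361). In mean FPKM the order was AXT+DOX, DOX, con, DMT+DOX and DSI+DOX, and the one step between neighbours without overlap was that from DOX to con.

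Nkx2-5, an early marker of heart progenitors, rose with doxorubicin by a margin close to the threshold. It stood at 5.85, 5.05 and 4.57 FPKM in con and at 7.28, 6.87 and 6.15 in DOX. The lowest DOX library was above the highest con library. The mean was 5.16 ± 0.643 in con and 6.77 ± 0.574 in DOX (log2 fold change 0.34, SE 0.13, adjusted p = 0.0496). The call held in 8 of 23 alternatives (adjusted p from 0.00714 to 0.179) with the same sign in all of them, and was lost after median scaling (0.138), after quantile normalization (0.139), with no filter (0.0719), with the replicate number as a block (0.0743) and without con replicate 2 or 3 or DOX replicate 1 or 2 (0.111 to 0.179). By a smaller margin it was also lost without DSI+DOX replicate 2 or any single AXT+DOX or DMT+DOX library (0.0503 to 0.0642). Values with an addition were 5.72, 6.21 and 8.33 FPKM in DSI+DOX, 6.25, 6.16 and 5.62 in AXT+DOX and 6.04, 6.72 and 5.26 in DMT+DOX. These groups overlapped both con and DOX. None was called against either, with log2 differences from con of 0.32 (DSI, adjusted p = 0.0549), 0.19 (AXT, 0.271) and 0.19 (DMT, 0.325). Without DSI+DOX replicate 3 the DSI difference was 0.18 (adjusted p = 0.186).

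Hand2, a partner of GATA4 in the right ventricle and the embryonic outflow tract, was higher with danshen injection than with doxorubicin alone. It stood at 30.3, 29.7 and 31.7 FPKM in con, at 27.9, 21.6 and 26.4 in DOX and at 32.6, 31.4 and 41.7 in DSI+DOX. All DSI+DOX libraries were above all DOX libraries. Its mean level went up from 25.3 ± 3.28 to 35.2 ± 5.64 FPKM, a log2 fold change of 0.46 with an SE of 0.12 (adjusted p = 0.0342). The call stayed without DSI+DOX replicate 3, the highest of all libraries (log2 fold change 0.33, adjusted p = 0.0475). Over 23 alternatives it was called in 17, with adjusted p from 0.0169 to 0.364. It was lost without DOX replicate 2 (adjusted p = 0.144) or 3 (0.0621), without con replicate 1 or AXT+DOX replicate 2 or 3 (0.0502 to 0.0524), and with only the 2 groups in the fit (0.364). In DOX against con the log2 difference was -0.27 ± 0.12 (adjusted p = 0.0903), with no overlap between the groups.

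With the other additions Hand2 was at 26.3, 24.5 and 25.2 FPKM in AXT+DOX and at 29.0, 29.6 and 36.5 in DMT+DOX. The AXT+DOX libraries lay within the range of DOX and those of DMT+DOX above it. DMT+DOX differed from DOX by 0.31 ± 0.12 on the log2 scale (adjusted p = 0.122), and AXT+DOX by 0.01 (95% interval -0.25 to 0.27). Hand2 was lower in AXT+DOX than in DSI+DOX, with a log2 fold change of -0.45 ± 0.12 (adjusted p = 0.0320; -0.32 and 0.0533 without DSI+DOX replicate 3). Over all alternatives this adjusted p was between 0.0167 and 0.298, and the call was also lost without AXT+DOX replicate 2 or 3 (0.114 and 0.113). Between DMT+DOX and AXT+DOX the difference was 0.30 (adjusted p = 0.200).

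Srf was the steadiest of the factors. It stood at 19.2, 20.8 and 18.1 FPKM in con, 17.1, 17.9 and 18.6 in DOX, 20.4, 21.4 and 16.5 in DSI+DOX, 18.7, 17.5 and 18.0 in AXT+DOX and 20.1, 19.6 and 19.3 in DMT+DOX. Neighbouring groups in the order of means overlapped throughout, and of the pairs of groups only DMT+DOX lay clear of DOX and of AXT+DOX. The log2 difference of DOX from con was -0.11 (95% interval -0.30 to 0.08; adjusted p = 0.350), and Srf was called in none of the 10 comparisons. Without DSI+DOX replicate 3 it was called higher in DSI+DOX than in DOX (log2 fold change 0.21, adjusted p = 0.0437; 0.0437 to 0.776 over all alternatives), where 11.8% of all genes were called.

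Myocd, the muscle coactivator of SRF, had the largest difference between con and DOX of the 6 and the widest spread. It stood at 6.56, 5.98 and 7.01 FPKM in con and at 3.55, 4.44 and 4.92 in DOX. All DOX libraries were below all con libraries, with means of 6.52 ± 0.516 and 4.30 ± 0.691 FPKM. The log2 difference was -0.51 ± 0.23 (SE; adjusted p = 0.0955), with DSI+DOX replicate 3 in the pooled spread. With that library left out, the same difference of -0.51 had an adjusted p of 0.00315 (0.00291 to 0.269 over all alternatives, called in 4 of 23).

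In the addition groups Myocd was at 5.75, 4.50 and 2.02 FPKM in DSI+DOX, 3.44, 4.64 and 4.67 in AXT+DOX and 5.24, 5.39 and 4.23 in DMT+DOX. All 9 libraries were below the lowest con library and each group overlapped DOX. Myocd was called lower in DSI+DOX than in con (log2 fold change -0.64 ± 0.23, adjusted p = 0.0385). Without DSI+DOX replicate 3 the log2 difference was -0.30 and the adjusted p 0.103 (0.00482 to 0.177 over all alternatives). The call was also lost without any con library or DOX replicate 2 (0.0505 to 0.108). Against con the differences were -0.52 with AXT (adjusted p = 0.0924) and -0.34 with DMT (adjusted p = 0.320). Both were called without DSI+DOX replicate 3, with adjusted p = 0.00278 (0.00278 to 0.270 over all alternatives) and 0.0400 (0.0165 to 0.599). Against DOX they were -0.13, -0.02 and 0.17 with DSI, AXT and DMT, with 95% intervals of -0.62 to 0.36, -0.51 to 0.48 and -0.32 to 0.66. The sign of the DSI difference turned without DSI+DOX replicate 3, to 0.21 (adjusted p = 0.371; 0.185 to 0.930 over all alternatives).

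The T-box factors and Hand1 were near 0. Tbx5, a regulator of limb and heart that is mutated in Holt-Oram syndrome in humans, was listed at 0 in 3 libraries and reached at most 0.0901 FPKM. Tbx20, of the developing heart chambers, was listed at 0 in 13 libraries and Hand1, of the left ventricle and the placenta, in 14. Their highest values were 0.0272 and 0.0426 FPKM. With read depth unknown, these levels show no more than that the genes were under the filter, and without a filter none of them was called in any of the 10 comparisons.

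By comparison, DOX against con called 2 of the 6 tested factors, 1 higher and 1 lower, where limma called 38.9% of all tested genes (24.8% higher and 14.1% lower). The libraries did not overlap for 5 of the 6, against 62.5% of all genes. The median log2 difference of the 6 was -0.19, beside 0.05 for all tested genes. Leaving out DSI+DOX replicate 3, a library of another group that enters the shared estimate of spread, gave 5 calls: Gata4 (adjusted p = 0.0250) and Nkx2-5 (0.00714) higher, and Gata6 (0.000616), Hand2 (0.0204) and Myocd (0.00315) lower. In that setting 57.0% of all genes were called (33.2% higher and 23.8% lower). Over alternatives that left out 1 library the count was between 1 and 5. Srf was not among the called in any alternative.

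**Figure D2:**
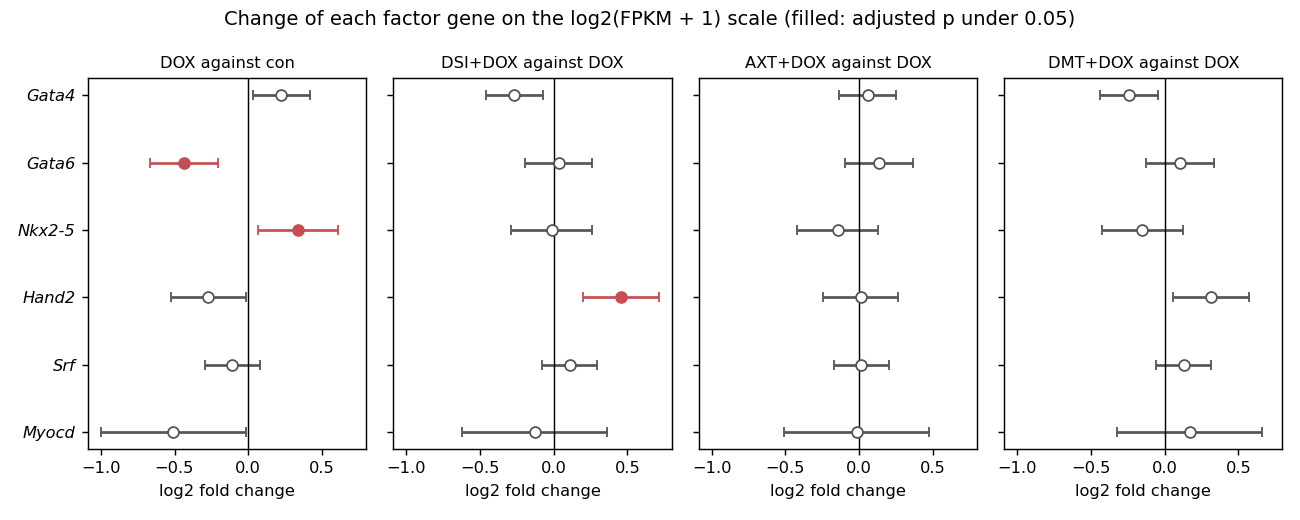
Differences of each tested factor gene on the log2(FPKM + 1) scale (horizontal axes) in 4 comparisons; points are limma estimates, bars 95% intervals and filled red points adjusted p under 0.05. Gata6 and Nkx2-5 are filled in DOX against con and Hand2 in DSI+DOX against DOX.

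**Figure D3:**
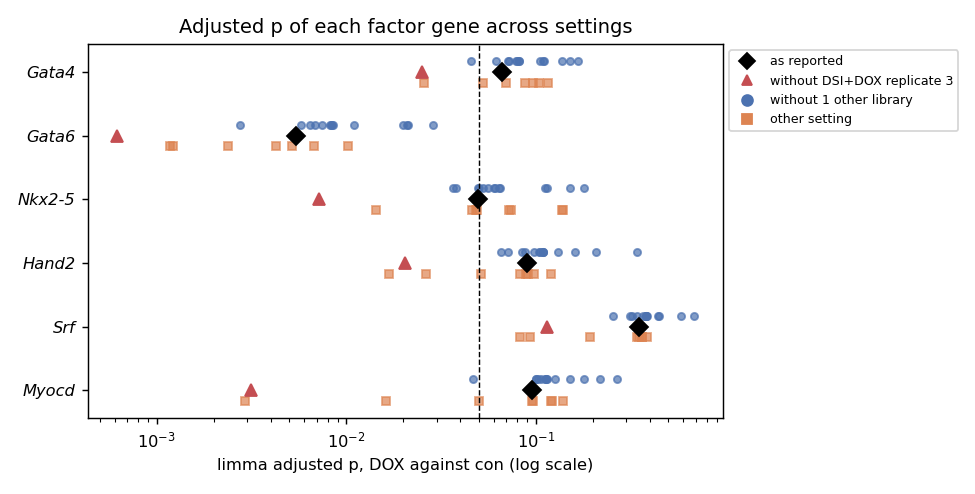
limma adjusted p of each tested factor gene in DOX against con (horizontal axis, log scale) as reported (diamond), without DSI+DOX replicate 3 (triangle), without 1 other library (circles) and under other settings (squares); the dashed line is 0.05. Gata6 stays left of the line throughout, and the triangle of every gene except Srf is left of it.

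DSI+DOX against DOX called 1 factor of 6, Hand2, against 7.88% of all genes (1.47% higher and 6.41% lower). Libraries did not overlap for Gata4 and Hand2, against 25.3% of genes. All tested genes had a median of -0.11 here, which median scaling moved to -0.02. After that scaling the log2 fold change of Hand2 was 0.57, and after quantile normalization 0.49. AXT+DOX against DOX called 0 of the 6 factors with limma, with 0 at an unadjusted p under 0.05, and 0.691% of all genes (0.0709% higher and 0.620% lower). In none of them were the libraries apart, as they were for 17.6% of genes. DMT+DOX against DOX called 0 of 6 with limma, against 10.5% of genes (2.93% higher and 7.53% lower), with Gata4 and Hand2 at an unadjusted p under 0.05. Libraries did not overlap for these and Srf, against 38.6% of genes. Both were called in DMT+DOX against DOX without DSI+DOX replicate 3, Gata4 lower (log2 fold change -0.24, adjusted p = 0.0361; 0.0361 to 0.370 over all alternatives) and Hand2 higher (0.31, adjusted p = 0.0206; 0.0206 to 0.412), where 25.0% of all genes were called.

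Against con, limma called 2 factors in DSI+DOX (Gata6 and Myocd; 41.8% of all genes), 2 in AXT+DOX (Gata4 and Gata6; 35.5%) and 1 in DMT+DOX (Gata6; 26.2%). Without DSI+DOX replicate 3 the counts were 1 (Gata6; 40.5% of all genes), 4 (Gata4, Gata6, Hand2 and Myocd; 53.5%) and 2 (Gata6 and Myocd; 45.1%). Hand2 then had an adjusted p of 0.0260 in AXT+DOX against con (0.00296 to 0.239 over all alternatives). Libraries did not overlap for 2 factors in DSI+DOX (51.5% of genes), 4 in AXT+DOX (60.3%) and 2 in DMT+DOX (57.0%). These comparisons share the con libraries with each other and with DOX against con. Between additions, 2 factors were called in AXT+DOX against DSI+DOX (Gata4 and Hand2, beside 10.5% of genes). They were the same 2 whose libraries did not overlap (28.8% of genes). Without DSI+DOX replicate 3 limma called 0 factors there, beside 11.7% of all genes. In DMT+DOX against DSI+DOX limma called 0 of 6, with 0 at an unadjusted p under 0.05 (1.68% of genes, 190 in all and 42 with the replicate number as a block), and libraries overlapped for all 6 (apart for 23.8% of genes). In DMT+DOX against AXT+DOX it called 0 of 6 (4.70% of genes), with Gata4 and Hand2 at an unadjusted p under 0.05, and libraries did not overlap for these and Srf (32.5% of genes). These 2 were called there without DSI+DOX replicate 3, Gata4 at -0.30 (adjusted p = 0.0188; 0.0188 to 0.295 over all alternatives) and Hand2 at 0.30 (adjusted p = 0.0352; 0.0352 to 0.547), where 15.9% of all genes were called.

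Among 8004 genes with a symbol and a mean of at least 5 FPKM, the 3 most like Gata6 in pattern over the 15 libraries were Tbx18 (Pearson r = 0.935), a T-box factor of the epicardium and sinus horn, Fam49b (0.931) and Sdha (0.917), which encodes a subunit of succinate dehydrogenase. Tbx18 stood at 8.77 FPKM in con, 5.70 in DOX and 5.68, 6.31 and 6.41 in the DSI, AXT and DMT groups. Without DSI+DOX replicate 3 these correlations were 0.917, 0.919 and 0.893. The 3 most like Nkx2-5 were Rpp25l (r = 0.910), Grhpr (0.908), which encodes a glyoxylate reductase, and Mrpl57 (0.903), of the mitochondrial ribosome, and their correlations without that library were 0.855, 0.862 and 0.844. The points share the 5 treatments and the libraries, so that genes which differ between con and doxorubicin correlate for that alone. Between factors, the strongest correlations were those of Gata6 with Nkx2-5 at -0.781 and with Myocd at 0.770 (-0.708 and 0.708 without DSI+DOX replicate 3, n = 14). Close to them were Nkx2-5 with Myocd at -0.776 and Gata4 with Hand2 at -0.722 (-0.620 and -0.630 without that library).

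Partners and co-regulators of the factors moved in both directions. Of 27 with an entry, 18 were tested, and in DOX against con 5 rose and 3 fell, with a median of 0.07 beside 0.05 for all genes. All tested genes were called higher in 24.8% and lower in 14.1% of cases, close to the share of these partners. Without DSI+DOX replicate 3 the partners gave 8 and 4, beside 33.2% and 23.8% of all genes. Those that rose with the largest change were Ldb1, an adaptor of LIM and GATA complexes (from 49.4 ± 0.866 to 68.8 ± 2.28 FPKM; log2 fold change 0.47), Zfpm1, which encodes the GATA cofactor FOG1 (0.47), and Tbx2, a repressor of chamber genes (0.31). Those that fell were Tead4, a factor that binds muscle promoters (from 7.22 ± 0.241 to 3.61 ± 0.562 FPKM; -0.84), Mef2c, a MADS-box partner of GATA4 (-0.58), and Tbx18 (-0.55). Zfpm1 was lower than in DOX with both DSI (-0.30, adjusted p = 0.0455) and DMT (-0.36, adjusted p = 0.0164). Mef2c was higher with DMT, from 4.82 ± 0.260 to 8.73 ± 0.347 FPKM (0.74, adjusted p = 0.0122). With DSI it was at 6.21 ± 2.10 FPKM (0.26, adjusted p = 0.305), and the DSI+DOX libraries were spread from 3.83 to 7.79. Among other GATA, HAND-related and T-box genes, 6 of 15 were tested and 1 was called, Nkx2-3 (0.40, adjusted p = 0.0151).

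All 30 SRF targets of the contractile and cytoskeletal class, only some of which myocardin is known to activate, were tested. In DOX against con 10 fell and 2 rose, with a median of -0.17. The largest falls were in Acta1, skeletal actin (from 19.4 ± 1.85 to 1.94 ± 0.290 FPKM; -2.79), Cnn1, calponin of smooth muscle (from 55.9 ± 4.07 to 23.0 ± 2.16; -1.25), and Lmod1, leiomodin (from 21.8 ± 0.485 to 9.55 ± 0.364; -1.11). The rises were in Tgfb1i1, a focal adhesion adaptor (0.46), and Ccn2, a matricellular protein gene (0.24). With DSI 8 of the 30 were higher than in DOX and 0 lower, and with DMT 6 were higher and 0 lower. Lmod1 reached 15.7 ± 1.71 FPKM with DSI (0.66) and 20.2 ± 0.411 with DMT (1.01). With AXT it was at 11.8 ± 0.0422 (0.28, adjusted p = 0.132). All genes were higher and lower in 24.8% and 14.1% of cases in DOX, 1.47% and 6.41% with DSI and 2.93% and 7.53% with DMT. Dropping DSI+DOX replicate 3 gave 3 higher and 17 lower in DOX, 11 and 0 with DSI and 12 and 3 with DMT. The shares of all genes in that setting, which also apply to the lists below, were 33.2% and 23.8%, 2.69% and 9.09%, and 7.83% and 17.2%.

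SRF targets of the immediate early class went the other way. Of 14 tested, 7 rose and 2 fell in DOX against con, beside 24.8% and 14.1% of all genes. Their median was 0.28, beside 0.05. Fosl1, an AP-1 subunit, rose from 13.4 ± 0.490 to 39.0 ± 1.60 FPKM (log2 fold change 1.47), Ier3, a stress-inducible survival gene, from 18.3 ± 0.859 to 49.9 ± 1.42 (1.40) and Junb, another AP-1 subunit, from 40.9 ± 2.67 to 72.6 ± 1.93 (0.82). Those that fell were Dusp1, a MAP kinase phosphatase (-0.41), and Zfp36, which destabilises mRNA (-0.37). In both DSI+DOX and DMT+DOX 6 of the 14 were lower than in DOX and 0 higher, Fosl1 by -0.71 and -1.02. Of all genes 6.41% and 7.53% were lower in these 2 comparisons, and 1.47% and 2.93% higher. Leaving out DSI+DOX replicate 3 gave 7 higher and 2 lower in DOX, 1 and 6 with DSI and 2 and 8 with DMT. With AXT 1 was called, Fosl1 (-0.44, adjusted p = 0.0192), beside 0.691% of all genes. With all libraries, the Srf transcript itself was called in none of these comparisons, its differences being -0.11, 0.11, 0.02 and 0.13. Without DSI+DOX replicate 3 it was called higher in DSI+DOX than in DOX (0.21, adjusted p = 0.0437).

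Of 10 tested cardiac muscle targets and cardiomyocyte markers, 7 fell and 0 rose in DOX against con, beside 14.1% and 24.8% of all genes. The median of the 10 was -0.54. Those that fell included Myl4, an atrial myosin light chain (from 23.4 ± 0.516 to 8.08 ± 0.280 FPKM, -1.42), and Tnnt2 (-1.32). Gja5, the connexin 40 gene and a known target of TBX5 and NKX2-5 in the mouse, also fell (from 131 ± 3.07 to 53.2 ± 3.02, -1.28). With DSI 5 of the 10 were higher than in DOX and with DMT 4, beside 1.47% and 2.93% of all genes. With either 0 were lower, beside 6.41% and 7.53%. Leaving out DSI+DOX replicate 3 gave 8 lower and 1 higher in DOX, 7 higher and 0 lower with DSI and 8 higher and 1 lower with DMT. Gja5 was at 81.9 ± 15.3 FPKM with DSI (0.60), 52.0 ± 1.52 with AXT and 84.8 ± 0.804 with DMT (0.66). Of 10 skeletal muscle markers 7 fell and 1 rose in DOX against con (8 and 1 without DSI+DOX replicate 3), with Myog at -4.81. Of 12 fibroblast and smooth muscle markers 8 fell and 0 rose (8 and 2 without that library), with Col1a1, the type I collagen gene, at -0.99. The last list shares 5 genes with the contractile class, Cnn1 and Lmod1 among them. Those 2 marker lists stood at sums of 179.7 to 197 and 9364 to 9848 FPKM in con and of 41.3 to 43.5 and 5877 to 6274 in DOX. Their part in the falls of the cardiac and contractile genes was not tested.

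Genes known as targets of GATA4 and GATA6, or as signals upstream of them, rose in 6 of 16 tested cases in DOX against con and fell in 1. Without DSI+DOX replicate 3 the counts were 7 and 2. Of all genes 24.8% rose and 14.1% fell (33.2% and 23.8% without that library). Edn1, which encodes endothelin 1, rose from 1.54 ± 0.255 to 5.69 ± 0.619 FPKM (1.40), Id1, a BMP-responsive inhibitor of helix-loop-helix factors, from 22.4 ± 0.948 to 49.6 ± 1.95 (1.11) and Bcl2l1, the gene of the survival protein BCL-XL and a target of GATA4 in rodent cardiomyocytes, from 25.8 ± 2.15 to 56.1 ± 0.947 (1.09). Id3, of the same family as Id1, fell from 49.7 ± 1.43 to 35.1 ± 1.46 (-0.49) and was higher than in DOX with DSI (0.55, adjusted p = 0.00872) and DMT (0.88, adjusted p = 0.000218). With DSI 1 of the 16 was higher and 3 lower than in DOX (1 and 0 without DSI+DOX replicate 3), beside 1.47% and 6.41% of all genes. With DMT 2 were higher and 1 lower (3 and 3 without that library), beside 2.93% and 7.53% of all genes. Bcl2l1 had a log2 difference from DOX of -0.08 with DSI, -0.02 with AXT and -0.05 with DMT, none called.

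**Figure D4:**
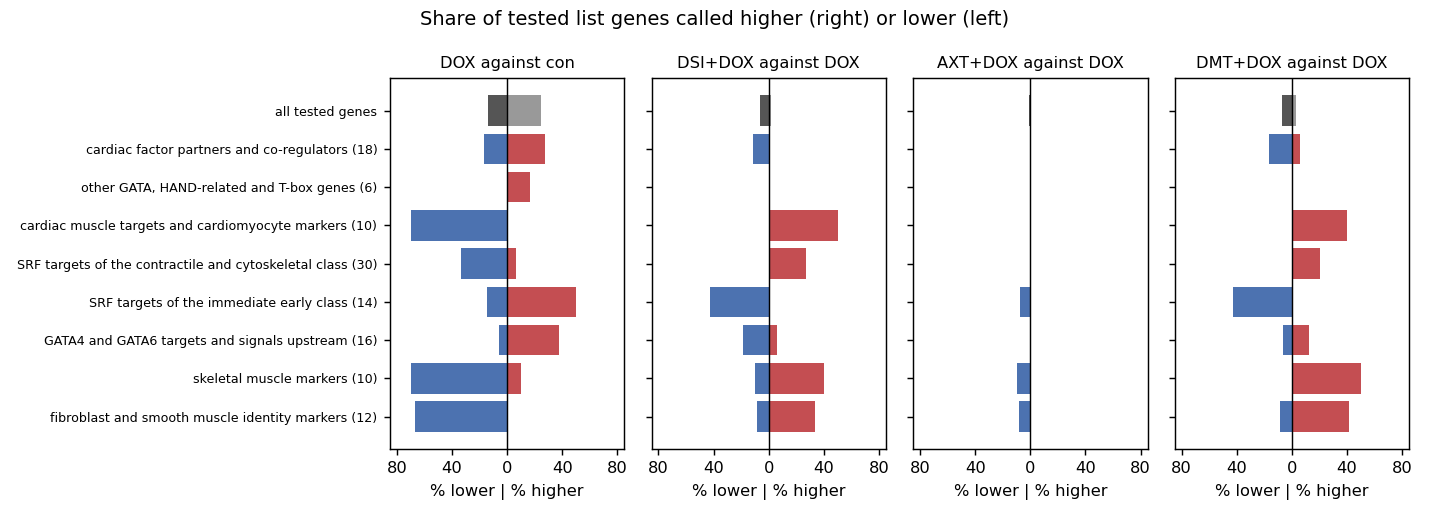
Percentage of the tested genes of each list (number in brackets) that limma called higher (right) or lower (left) in 4 comparisons (horizontal axes), with all tested genes in grey. Contractile, cardiac, skeletal and fibroblast lists extend mainly left in DOX against con and mainly right with DSI and DMT. The immediate early list extends mainly the opposite way. With AXT the longest bar is 10%, of the skeletal list to the left.

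The pair of CArG boxes printed for Srf was set beside the other promoters that hold one. Of the 7 genes with 2 or more, 4 were in the expression table, namely Srf, Egr1, Dusp5 and Hnrnpd. Dusp5, a nuclear ERK phosphatase gene, rose from 4.08 to 7.25 FPKM with doxorubicin (log2 fold change 0.70, adjusted p = 1.67e-05). Egr1, an immediate early zinc finger gene, was at 15.1 FPKM in con and 16.0 in DOX (adjusted p = 0.563) and was lower than in DOX with DSI (-0.47, adjusted p = 0.00725) and DMT (-0.73, adjusted p = 0.000177). Of 117 tested genes with at least 1 box, 19.7% were higher and 21.4% lower in DOX, with a median of -0.02, beside 24.8% and 14.1% of all tested genes and a median of 0.05. These genes were chosen by promoter letters alone.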

How the data were processed

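RNA of 15 H9c2 samples was sequenced after TRIzol extraction and NEBNext Ultra library preparation, per the labels. Deposited values are FPKM for each library, as the file headers state. Per the submitters' processing notes, Trimmomatic, HISAT2 and featureCounts were used with the build Rnor_6.0. How counts became FPKM, and whether libraries were scaled, is not given in the sources used here. Values of low genes did not fall on steps of whole reads (the most common ratio between con replicates 1 and 2 held 0.702% of 570 low genes), so depth is unknown and no count model or counting interval was used.

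Of 19344 entries, 16 exact duplicates were removed. The filter of at least 1 FPKM in at least 3 libraries left 11288 genes. limma 3.58.1 (R 4.3.3) fitted group means to log2(FPKM + 1), using the 15 libraries together with an intensity trend and 10 residual degrees of freedom. Tests were two-sided, and a call needs a Benjamini-Hochberg adjusted p, over all tested genes, under 0.05. Fold changes are on that scale, which understates changes of low genes. FPKM values do not separate reads of paralogues or overlapping genes. A symbol on several entries (Myh9) was represented by its highest entry. The fit was tested on simulated data.

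The factors and gene lists were chosen with earlier results of these data known. Named were all factors, up to 3 called genes per direction with the largest change in DOX against con from each list, and the 3 genes closest to each called factor by Pearson r. Egr1, Dusp5 and Hnrnpd were named for their promoters, and other genes as cell type markers or where a list's only call fell on them. Alternatives tried were each library left out, the replicate block, no trend, a fit to the compared groups alone, quantile normalization, median scaling, a filter at 5 FPKM or none, and a pseudocount of 0.1. Replicate numbers are in the labels. Same-numbered samples deviated together with r from -0.536 to 0.517 over 30 pairs, over 0.1 in 8, and in all 3 pairs for DSI+DOX with DMT+DOX alone, where the block is given beside the count.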

Additional observations from a re-analysis of the deposited data

How the results depend on the processing

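Of 544 recomputed fold changes of the tested factors in DOX against con and in each addition against DOX, 508 kept their side of the threshold, 493 of them with the same sign and 15 with the sign turned, 15 gained a call and 21 lost one. The 15 turned signs were all of differences not called in any setting (Myocd, Nkx2-5 and Gata6 with DSI, Myocd, Srf and Hand2 with AXT). The larger moves in the counts of called factors were as follows. Rises from 2 to 3 are not listed, such as one in DSI+DOX against con. Under the filter at 5 FPKM, which drops Gata6 and Gata4 from the test, they were 1 (DOX against con), 1 (DSI+DOX against con), 0 (AXT+DOX and DMT+DOX against con) and 1 (AXT+DOX against DSI+DOX). With no filter the same comparisons gave 1, 1, 1, 0 and 0. A pseudocount of 0.1 gave 1 in AXT+DOX against con. Median scaling gave 1 in DOX against con and 1 in AXT+DOX against DSI+DOX, and quantile normalization 1 in DMT+DOX against DOX and 1 in AXT+DOX against DSI+DOX. When the fit held the compared groups alone, the counts were 5 (DOX against con), 0 (DSI+DOX against DOX), 0, 4 and 2 (DSI+DOX, AXT+DOX and DMT+DOX against con) and 0 (AXT+DOX against DSI+DOX). With the replicate block they were 1 in DOX against con, 1 in DSI+DOX against con and 1 in AXT+DOX against DSI+DOX. The block made no other of these larger moves. The cause of these moves was not tested.

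With 1 library left out, the count ran from 1 to 5 in DOX against con, 0 to 2 in DSI+DOX and in DMT+DOX against DOX, 1 to 3, 0 to 4 and 0 to 2 in DSI+DOX, AXT+DOX and DMT+DOX against con, 0 to 2 in AXT+DOX against DSI+DOX and 0 to 2 in DMT+DOX against AXT+DOX. It was 0 throughout for AXT+DOX against DOX and DMT+DOX against DSI+DOX.

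Over all genes, calls in DOX against con numbered 4391 and ran from 3502 to 6434, and in DSI+DOX against DOX 889, from 1 with only those groups in the fit to 2530 with a library left out. Read depth is unknown, 3 libraries a group limit the precision, and the pseudocount compresses differences of the low factors.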
